A study of Mus musculus with 12 samples.

Results

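The 10 enzymes described here carry threonine, serine and glycine carbon into the folate-bound one-carbon pool: Tdh, Gcat, Gldc, Phgdh, Psat1, Psph, Shmt1, Shmt2, Mthfd1 and Mthfd2. Their members were found by name, as each non-control probe whose gene name in the scanner output was one of these 10, which gave 16 of the 55681 non-control probes. The match of probes to names used no measured value, but the 10 enzymes were chosen with earlier results of these data known. Phgdh had 3 probes, Tdh, Psat1, Psph and Shmt1 had 2 each, and the other enzymes had 1 each. All 16 probes were well above background on all 12 arrays.

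RNA from 12 mouse samples was measured on Agilent one-colour arrays. Mouse embryonic stem cells (mESC) were labelled by phenotype as Tbx3-high (4 arrays) or Tbx3-low (4 arrays), and induced pluripotent stem cells (iPSC) as Tbx3 null (2 arrays) or Tbx3 wildtype (2 arrays). The T-box factor Tbx3 belongs to the naive pluripotency network, and the study's title names its role there as the subject. No source used here gives the strain, the medium, the way high and low cells were told apart, the deleted piece of the gene, or whether each array is its own culture or clone. The p-values therefore measure the spread between these arrays, which may be technical.

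Threonine dehydrogenase (Tdh) and glycine C-acetyltransferase (Gcat) split threonine into glycine and acetyl-CoA in mitochondria, a route for which mouse embryonic stem cells are known to depend on threonine in their medium. Glycine decarboxylase (Gldc) of the glycine cleavage system and the serine hydroxymethyltransferases Shmt1 (cytosol) and Shmt2 (mitochondria) pass a carbon from glycine or serine to tetrahydrofolate. Phgdh, Psat1 and Psph make serine from a glycolytic intermediate in that order, and Mthfd1 (cytosol) and Mthfd2 (mitochondria) interconvert the folate-bound carbon units used for purines, thymidylate and methionine.

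The array values touch the reading of these enzymes in a few ways. Values are log2 signals, the log2 of the scanner's processed signal minus that array's 75th percentile, so a value of 0 is the brightness of a probe at that percentile. The 75th percentile itself ranged from 314 to 458 signal units in mESC and from 699.8 to 1007 in iPSC. Between 55.9% and 64.8% of probes were well above background on the mESC arrays, 62.4% and 63.0% on the arrays labelled null, and 68.0% and 68.6% on the wild-type arrays. No spot was saturated. On the slide, low and wild-type arrays occupied columns 1 and 2 and high and null arrays columns 3 and 4, so column and group cannot be told apart. The number of arrays limits the precision. Each enzyme was read in bulk RNA, where fewer cells of a type and less RNA per cell cannot be told apart. Tbx3 was read from A_55_P1969002, its tested probe with the highest mean. That probe was higher in the Tbx3-high mESC by 1.33 ± 0.08 (log2 difference ± SE, limma adjusted p = 7.3e-07). In the iPSC the null-labelled arrays had the higher value, by 0.32 ± 0.11 (adjusted p = 0.048). No source used here places the probe inside or outside the deleted part, so the iPSC groups are named by their labels.

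Among Tbx3-high and Tbx3-low mESC, the threonine-splitting enzyme Tdh and the mitochondrial hydroxymethyltransferase Shmt2 were higher in the high cells, while Mthfd2 and 1 of the 2 Psat1 probes were lower. These were 5 of the 16 probes with an adjusted p under 0.05 (limma, Benjamini-Hochberg over all 30691 probes tested), 3 higher and 2 lower, where 25.9% of all tested probes passed (14.5% higher and 11.4% lower). The share of the enzyme probes, 31.2%, was thus close to that background, and their median difference was 0.04 log2 units, as it was over all probes. The same 5 probes were those whose high and low arrays did not overlap, which 29.2% of all tested probes did.

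**Figure D1:**
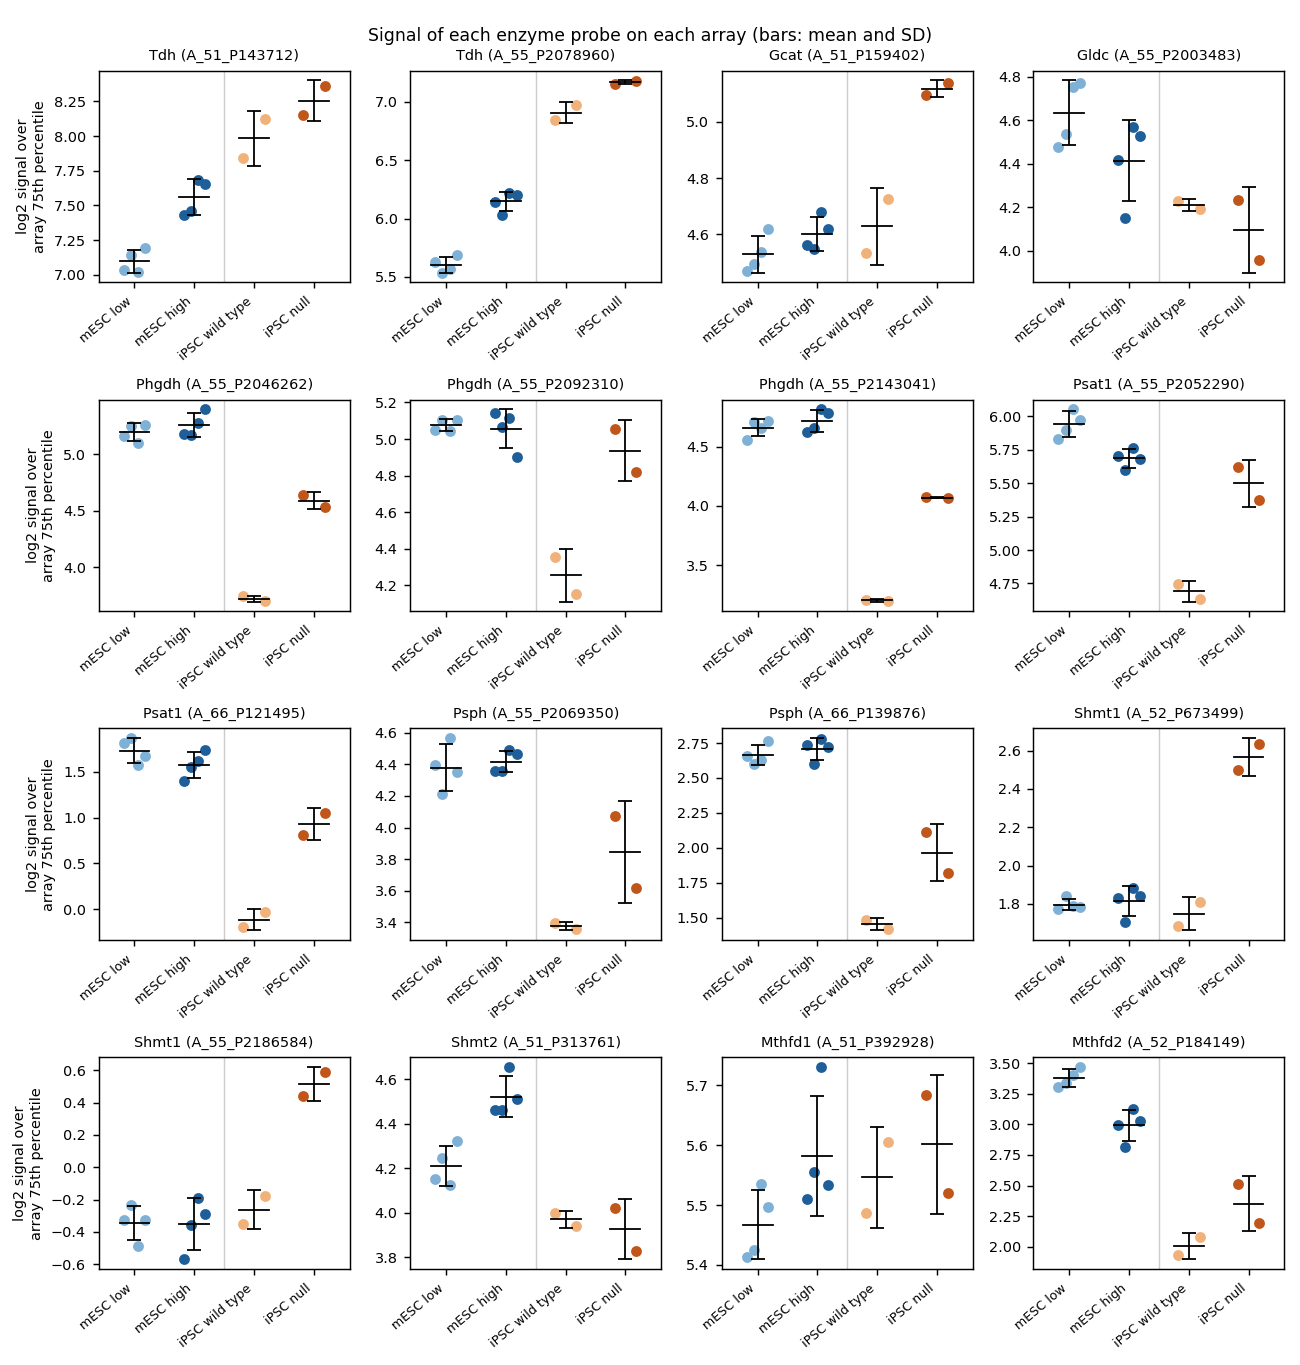
Log2 signal over each array's 75th percentile for the 16 probes of the 10 enzymes, one panel per probe, with a point per array and a bar for the mean and SD of each group (4, 4, 2 and 2 arrays). The vertical line separates the mESC slide from the iPSC slide, which were not compared, and vertical axes differ between panels; the 4 Tbx3-high arrays lie above the 4 Tbx3-low arrays for both Tdh probes and for Shmt2, and the 2 null arrays lie above the 2 wild-type arrays for every Phgdh, Psat1, Psph and Shmt1 probe and for Gcat.

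Tdh was the enzyme that differed most between the mESC groups. Its probe A_55_P2078960 (mm9, chromosome 14, 64111366 to 64111425, minus strand) read 5.63, 5.54, 5.57 and 5.69 on the low arrays and 6.14, 6.03, 6.22 and 6.20 on the high arrays. Every high array thus lay above every low array, and the difference was 0.54 ± 0.07 log2 units, or 1.46-fold (95% interval 0.39 to 0.69, adjusted p = 0.000169). The other Tdh probe, A_51_P143712 at 64111327 to 64111386 of the same strand, overlaps the first and is not an independent target. It read 7.03, 7.14, 7.02 and 7.19 on the low arrays and 7.43, 7.46, 7.68 and 7.66 on the high arrays, again without overlap, a difference of 0.46 ± 0.09 (adjusted p = 0.0040). High and low arrays shared 2 slide rows, and within them the A_55_P2078960 difference was 0.50 in row 1 and 0.58 in row 2, past the threshold in each (adjusted p = 0.0224 and 0.0113). The A_51_P143712 difference was 0.36 in row 1, which did not pass (adjusted p = 0.126), and 0.56 in row 2 (adjusted p = 0.0374).

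Gcat, which completes the split that Tdh begins, did not pass between the mESC groups. Its probe (chromosome 15, 78867788 to 78867847, plus strand) read 4.47, 4.49, 4.54 and 4.62 on the low arrays and 4.56, 4.55, 4.68 and 4.62 on the high arrays, which overlapped. The difference was 0.07 (95% interval -0.08 to 0.22, adjusted p = 0.483), an interval that lies below the Tdh differences. Gldc (chromosome 19, 30172983 to 30173042, minus strand) read 4.48, 4.54, 4.75 and 4.77 on the low and 4.42, 4.15, 4.57 and 4.53 on the high arrays, a difference of -0.22 that did not pass (95% interval -0.47 to 0.03, adjusted p = 0.182).

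The mitochondrial enzymes that follow moved in opposite directions. Shmt2 (chromosome 10, 126954811 to 126954870, minus strand) read 4.15, 4.25, 4.12 and 4.32 on the low arrays and 4.46, 4.46, 4.66 and 4.51 on the high arrays, a difference of 0.31 ± 0.08 or 1.24-fold (adjusted p = 0.0116). Mthfd2 (chromosome 6, 83256518 to 83256577, minus strand) read 3.30, 3.33, 3.40 and 3.47 on the low arrays and 2.997, 2.81, 3.12 and 3.03 on the high arrays. It was 1.31-fold lower in the high cells (log2 difference -0.39 ± 0.09, adjusted p = 0.0103), with no overlap between the groups. Within a single slide row neither passed, although both kept their direction: Shmt2 differed by 0.26 and 0.36 (adjusted p = 0.152 and 0.095) and Mthfd2 by -0.41 and -0.36 (adjusted p = 0.102 and 0.119) in rows 1 and 2.

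Their cytosolic counterparts gave no call. Shmt1 is the cytosolic hydroxymethyltransferase, and its probes on chromosome 11 (60603099 to 60603158 and 60620453 to 60620512, minus strand) differed by 0.02 (95% interval -0.13 to 0.16) and -0.01 (95% interval -0.22 to 0.20). Mthfd1 (chromosome 12, 77418622 to 77418681, plus strand) read 5.41 to 5.53 on the low and 5.51 to 5.73 on the high arrays, a difference of 0.11 (95% interval -0.05 to 0.28, adjusted p = 0.293).

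Of the serine synthesis enzymes, Psat1, the aminotransferase of the middle step, was the one with a call in mESC. Its probe A_55_P2052290 (chromosome 19, 15979622 to 15979681, minus strand) read 5.83, 5.90, 6.05 and 5.97 on the low arrays and 5.70, 5.60, 5.76 and 5.68 on the high arrays, a difference of -0.25 ± 0.08 (adjusted p = 0.0367). The second Psat1 probe, A_66_P121495 at 15991586 to 15991645, differed by -0.16 with overlapping groups and did not pass (adjusted p = 0.292). The Psat1 call was lost without any 1 of 6 of the 8 arrays (adjusted p = 0.0596 to 0.1 without low replicate 2, 3 or 4 or high replicate 1, 2 or 4) and in each slide row alone (differences -0.21 and -0.29, adjusted p = 0.284 and 0.144).

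Phgdh, the first enzyme of serine synthesis, was measured by 3 probes on chromosome 3, minus strand. A_55_P2046262 (98117215 to 98117274) differed by 0.06 (95% interval -0.10 to 0.22), A_55_P2143041 (98117303 to 98117361) by 0.06 (95% interval -0.09 to 0.21) and A_55_P2092310 by -0.02 (95% interval -0.20 to 0.16). The last is placed by the file on 12 bases (98117083 to 98117094), and its accession is a cDNA named Phgdh by the array design. Psph, the phosphatase of the last step, differed by 0.04 (95% interval -0.19 to 0.27) at A_55_P2069350 (chromosome 5, 130271441 to 130271500, minus strand) and by 0.05 (95% interval -0.13 to 0.22) at A_66_P139876 (130272308 to 130272367). These intervals exclude mESC differences as large as those of the same probes between the iPSC groups below.

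In the iPSC, by contrast, all 3 serine synthesis enzymes, Shmt1 and Gcat were higher in the arrays labelled Tbx3 null, by 1.38-fold to 2.07-fold. These sizes belong to the main scaling. Over the alternatives, left-out arrays included, the lowest log2 differences were 0.65, 0.51 and 0.71 for the Phgdh probes. They were 0.61 and 0.86 for Psat1 and 0.62 and 0.64 for Shmt1, all still higher in null. Of the 16 enzyme probes, 10 passed in limma and all 10 were higher in null (0 were lower, also at an unadjusted p under 0.05), where 28.3% of the 36712 probes tested passed and 15.5% passed as higher. The median difference of the 16 probes was 0.50 log2 units against 0.05 over all probes tested. The 10 probes belong to 5 genes, and probes of 1 gene share a target, so they are not 10 separate genes. The 2 null and 2 wild-type arrays did not overlap for 13 of the 16 probes, which 66.4% of all tested probes also did.

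**Figure D2:**
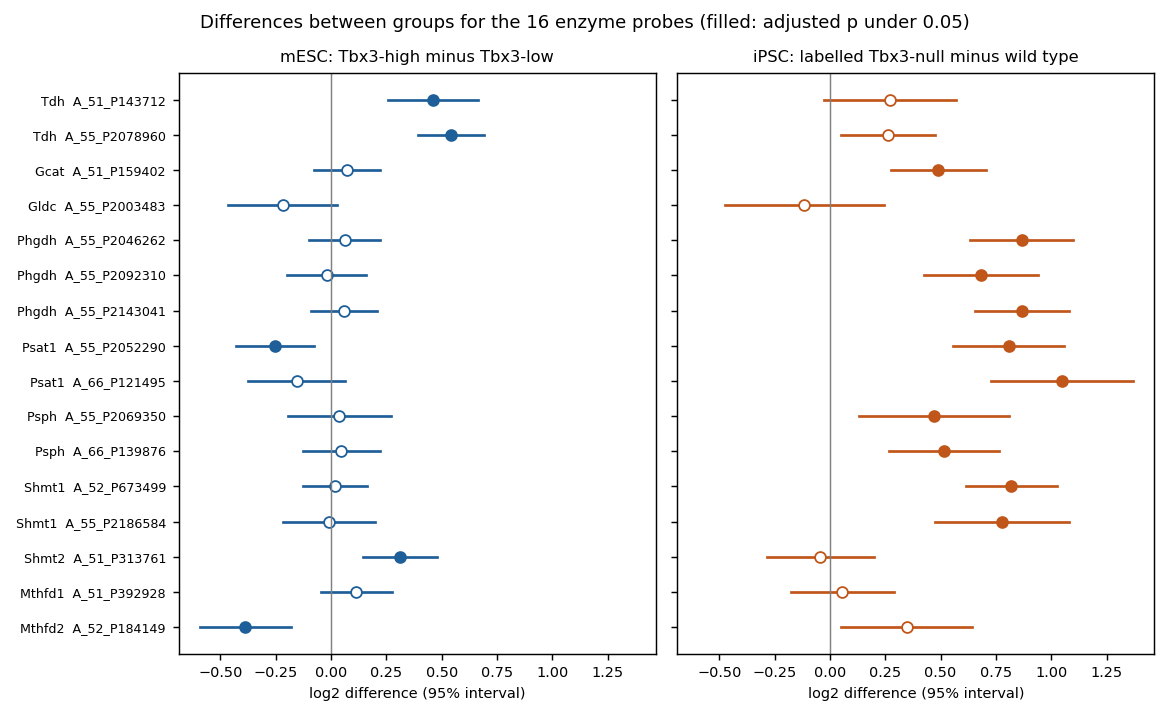
Log2 difference with its 95% interval for each of the 16 enzyme probes, Tbx3-high minus Tbx3-low mESC on the left and labelled Tbx3-null minus wild-type iPSC on the right, with filled points for an adjusted p under 0.05. In mESC 3 probes lie to the right and 2 to the left among the filled points, and in iPSC all 10 filled points lie to the right of 0, up to 1.05 for Psat1.

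Psat1 differed most. Its probe A_66_P121495 read 0.81 and 1.05 on the null arrays and -0.20 and -0.03 on the wild-type arrays, a difference of 1.05 ± 0.14 or 2.07-fold (95% interval 0.73 to 1.37, adjusted p = 0.000401). Its brighter probe A_55_P2052290 read 5.62 and 5.37 on the null arrays and 4.74 and 4.64 on the wild-type arrays, a difference of 0.81 ± 0.11 (adjusted p = 0.000464). Both probes thus gave the same direction, with overlapping intervals.

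Phgdh was higher in null at all 3 probes. A_55_P2143041 read 4.07 on both null arrays and 3.21 and 3.20 on the wild-type arrays, a difference of 0.87 ± 0.09 or 1.82-fold (95% interval 0.66 to 1.08, adjusted p = 9.19e-05). A_55_P2046262 read 4.64 and 4.54 against 3.74 and 3.71, a difference of 0.87 ± 0.10 (adjusted p = 0.000168). The probe with the 12-base placement, A_55_P2092310, read 5.05 and 4.82 against 4.36 and 4.15, a difference of 0.68 ± 0.12 (adjusted p = 0.00162). Array pairs separated fully at each of the 3.

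Psph was also higher in null, and its calls were lost under more of the alternative settings than those of the other enzymes. A_66_P139876 read 2.11 and 1.82 on the null arrays and 1.48 and 1.42 on the wild-type arrays, a difference of 0.51 ± 0.11 (95% interval 0.27 to 0.76, adjusted p = 0.00649). A_55_P2069350 read 4.07 and 3.62 against 3.39 and 3.36, a difference of 0.47 ± 0.15 (adjusted p = 0.0422). Its null arrays lay further from each other than the lower of them from the wild-type arrays. Their SD was 0.32, while the SE used the spread shared with the other groups. Without null replicate 1 the differences fell to 0.37 and 0.24, and quantile scaling ended the call of A_55_P2069350 (0.32, adjusted p = 0.0867). Over all alternatives the call was lost in 2 of 11 for A_66_P139876 and in 8 of 12 for A_55_P2069350.

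Shmt1 was higher in null at both probes, while its mitochondrial counterpart was not. A_52_P673499 read 2.50 and 2.64 on the null arrays and 1.69 and 1.81 on the wild-type arrays, a difference of 0.82 ± 0.09 or 1.76-fold (adjusted p = 0.000113). A_55_P2186584 read 0.44 and 0.59 against -0.35 and -0.18, a difference of 0.78 ± 0.14 (adjusted p = 0.00187). Shmt2 read 4.02 and 3.83 on the null arrays and 3.998 and 3.94 on the wild-type arrays, a difference of -0.04 whose interval of -0.29 to 0.20 lies below both Shmt1 intervals (0.61 to 1.02 and 0.47 to 1.08). The difference between Shmt1 and Shmt2 was not itself tested.

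In the threonine pair, Gcat and not Tdh passed in iPSC, and Gcat was not tested against Tdh. Gcat read 5.10 and 5.14 on the null arrays and 4.53 and 4.72 on the wild-type arrays, a difference of 0.49 ± 0.10 or 1.40-fold (95% interval 0.28 to 0.70, adjusted p = 0.00354). Fitted on the 4 iPSC arrays alone, Gcat did not pass (adjusted p = 0.0626), and background correction by normexp with quantile scaling lowered it to 0.32 with the call kept. Tdh read 8.15 and 8.36 against 7.84 and 8.12 at A_51_P143712 and 7.16 and 7.18 against 6.84 and 6.97 at A_55_P2078960. Both null arrays were above both wild-type arrays at each probe, but neither difference passed (0.27, adjusted p = 0.168, and 0.26, adjusted p = 0.0683), and quantile scaling of the background-corrected signal left 0.12 and 0.02.

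Gldc and the Mthfd enzymes had no call in iPSC. Gldc read 4.24 and 3.96 on the null and 4.23 and 4.19 on the wild-type arrays, a difference of -0.11 (95% interval -0.48 to 0.25). Mthfd1 differed by 0.06 (95% interval -0.18 to 0.29), with its sign turned by each of the other scalings. Mthfd2 read 2.51 and 2.19 against 1.93 and 2.08, without overlap, but its difference of 0.35 did not pass (95% interval 0.05 to 0.64, adjusted p = 0.082), and it passed without null replicate 2 (0.51, adjusted p = 0.0343).

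The start-site windows of the 5 genes that were higher in the null arrays are shown because these genes moved together and share no probe. They come from RefSeq (GRCm38.p6, a later build than the mm9 of the probes), each from 250 bases before to 30 after an annotated start, 5′ to 3′ on the gene's strand. For Phgdh, Psat1, Psph and Shmt1 the capitals mark the CCAAT box, bound by NF-Y, in either orientation (CCAAT or ATTGG). For Gcat they mark the letters GGTGTG, the core of a T-box element, and CACGTG, an E-box.
Phgdh (chr3:98339940-98340219, minus strand): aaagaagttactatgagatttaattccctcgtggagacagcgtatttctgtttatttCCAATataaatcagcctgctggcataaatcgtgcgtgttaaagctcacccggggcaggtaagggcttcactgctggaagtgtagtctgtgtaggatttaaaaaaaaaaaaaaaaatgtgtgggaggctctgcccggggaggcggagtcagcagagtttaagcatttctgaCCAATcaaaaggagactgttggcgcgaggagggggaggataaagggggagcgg
Psat1 (chr19:15925030-15925309, minus strand): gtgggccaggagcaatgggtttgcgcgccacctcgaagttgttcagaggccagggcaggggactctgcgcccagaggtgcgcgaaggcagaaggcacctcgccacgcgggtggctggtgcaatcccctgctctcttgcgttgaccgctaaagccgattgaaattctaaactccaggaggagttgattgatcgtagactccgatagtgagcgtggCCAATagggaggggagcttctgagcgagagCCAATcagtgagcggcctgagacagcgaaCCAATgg
Psph (chr5:129787224-129787503, minus strand): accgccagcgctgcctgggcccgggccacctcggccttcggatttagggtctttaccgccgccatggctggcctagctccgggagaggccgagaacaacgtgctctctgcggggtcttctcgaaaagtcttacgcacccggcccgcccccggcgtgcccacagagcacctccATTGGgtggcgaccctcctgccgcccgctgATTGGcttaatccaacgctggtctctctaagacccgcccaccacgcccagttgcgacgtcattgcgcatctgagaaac
Shmt1 (chr11:60811236-60811515, minus strand): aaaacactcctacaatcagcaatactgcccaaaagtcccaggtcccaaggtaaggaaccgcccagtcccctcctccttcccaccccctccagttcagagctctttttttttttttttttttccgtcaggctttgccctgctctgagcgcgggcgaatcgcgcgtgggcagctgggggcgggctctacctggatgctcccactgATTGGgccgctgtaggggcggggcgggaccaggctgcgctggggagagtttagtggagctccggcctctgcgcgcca
Gcat (chr15:79030624-79030903, plus strand): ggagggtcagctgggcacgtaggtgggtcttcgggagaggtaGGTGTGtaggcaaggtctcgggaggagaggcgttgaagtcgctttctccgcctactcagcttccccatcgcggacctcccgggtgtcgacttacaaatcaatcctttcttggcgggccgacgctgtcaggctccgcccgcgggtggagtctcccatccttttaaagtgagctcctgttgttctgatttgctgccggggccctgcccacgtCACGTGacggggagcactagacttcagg

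A table of such windows held 9 of the 10 genes (all but Tdh), with 2 starts for Psat1, of which the first is shown. All 300 bases, to 50 after the start, were searched on both strands for 4 motifs. TGATGNAA, the C/EBP-ATF element through which Atf4 acts on amino acid genes, was in 0 of the 10 windows and in 3.97% of all 32851 windows of the table. GGTGTG was in 1 window, Gcat at base -208, against 19.0% of all windows, and CACGTG was also in 1, Gcat at base 3, against 7.15%. CCAAT was added to the search after the sequences were seen and was in 7 of the 10 windows, against 37.4% of all windows. The 7 genes were Gldc, Mthfd1, Mthfd2, Phgdh, Psat1, Psph and Shmt1, so it was in windows of genes with and without a call. The nearest to the start lay at base -23 in Phgdh, base -48 in Psph and base -47 in Shmt1, and Psat1 had 3, at bases -36, -6 and 24. The motifs do not overlap in these windows. A match is a run of letters in a window, and no binding was measured.

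Whether an enzyme moved differently in the 2 systems was tested as (high minus low) minus (wild type minus null), which sets the groups side by side by their Tbx3 labels. The measured Tbx3 probe was higher on the null-labelled arrays, so this contrast does not follow the measured level. That measured order rests on 1 probe and 2 arrays a group, and it passed narrowly in limma (0.32, adjusted p = 0.048). The alternative settings were read for the enzyme probes and not for Tbx3. For 11 of the 16 probes, of 6 genes, it passed, all with positive values, where 28.8% of the 30332 probes tested passed and 17.2% passed as higher. Under quantile scaling, with normexp and in the series table, Psat1 at A_55_P2052290 no longer passed (adjusted p = 0.0501, 0.104 and 0.0712), Gldc passed as lower (-0.51, -0.57 and -0.58) and, with normexp, Gcat no longer passed (adjusted p = 0.0522). Psph at A_66_P139876, Phgdh at A_55_P2092310, Shmt1 at A_55_P2186584 and Tdh at A_51_P143712 also lost the call in at least 1 alternative. The contrast equals the sum of the 2 differences given above. It was 0.93 ± 0.13, 0.93 ± 0.12 and 0.66 ± 0.14 for the Phgdh probes and 0.84 ± 0.11 and 0.77 ± 0.16 for Shmt1, whose mESC differences were near 0. Psat1 at A_55_P2052290 was lower under the label with more Tbx3 in both systems, with -0.25 for high minus low and 0.81 for null minus wild type, so its differences ran the same way by the labels and differed in size. For Tdh the contrast was 0.73 ± 0.16 and 0.80 ± 0.12, with neither iPSC difference passing. Gldc, Mthfd1, Mthfd2, Shmt2 and the second Psph probe, A_55_P2069350, did not pass. That Psph probe was near the threshold in limma (adjusted p = 0.0574) and passed in 5 of 22 alternatives.

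With the iPSC difference turned to the measured Tbx3 order, (high minus low) minus (null minus wild type), an alternative added after the data were seen, 10 of the 16 probes passed in limma, all with negative values, where 34.6% of probes passed and 18.2% passed as lower. Tdh was not among them, at 0.19 ± 0.16 (adjusted p = 0.410) and 0.28 ± 0.12 (adjusted p = 0.0896). Its call between the systems thus depends on which order of the iPSC groups is taken. Mthfd2 passed in this form and not in the first, at -0.73 ± 0.16. The Phgdh, Psat1 and Shmt1 probes, Gcat and 1 Psph probe passed in both forms, Psat1 at -1.06 ± 0.14 and -1.20 ± 0.17. For Phgdh, Shmt1, Psph and Gcat the mESC difference was near 0. Both forms then mainly restate the iPSC difference with its sign turned, so passing in both is not a second result.

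**Figure D3:**
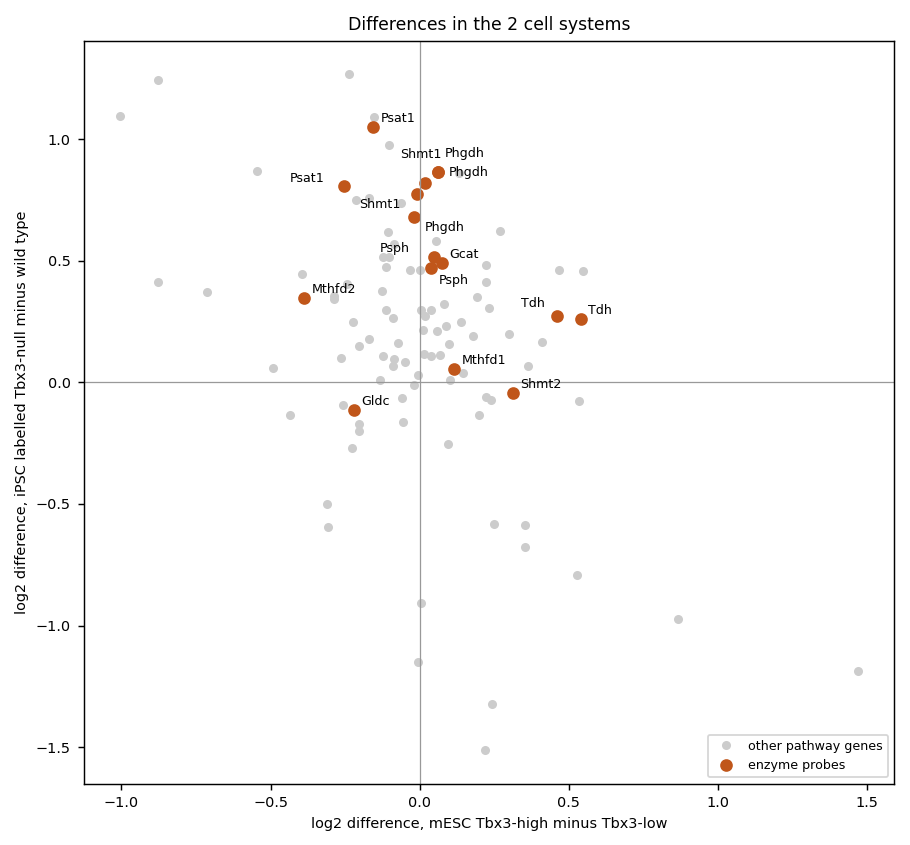
Log2 difference between Tbx3-high and Tbx3-low mESC (horizontal) against that between labelled Tbx3-null and wild-type iPSC (vertical), with orange points for the 16 enzyme probes and grey points for 89 other genes of the pathway lists; 2 genes, Bhmt and Nnmt, lie beyond the axes. Phgdh, Shmt1, Psph and Gcat lie near 0 horizontally and at 0.47 to 0.87 vertically, and the 2 Tdh points lie to their right at 0.46 and 0.54.

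Genes around these enzymes were read from 11 lists of 106 entries, with 1 probe per gene, where 31.6% of 15195 named genes passed in mESC (17.4% higher, 14.2% lower) and 35.6% of 16850 in iPSC (20.2% higher, 15.5% lower). The lists were written with earlier results of these data known, so counts are descriptions. Serine synthesis, the list of Phgdh, Psat1 and Psph, had 1 of 3 lower in mESC and 3 of 3 higher in iPSC.

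In the rest of threonine and serine breakdown, serine racemase Srr was lower in Tbx3-high mESC (-0.49 ± 0.13, adjusted p = 0.0154). The serine dehydratase-like gene Sdsl passed in neither system. In the glycine cleavage system, Amt, the aminomethyltransferase that works after Gldc, was higher in the null arrays (0.46 ± 0.11, adjusted p = 0.0106), and the other 3 genes, Gldc, Gcsh and Dld, did not pass in either system.

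Of the folate cycle, 4 of 15 genes measured were higher and 2 lower in Tbx3-high mESC, with a list median of 0.02. Apart from Shmt2 and Mthfd2, the largest were the cytosolic formyltetrahydrofolate dehydrogenase Aldh1l1 (0.86 ± 0.09) and the folate hydrolase Ggh (-0.43 ± 0.07). In iPSC 3 of 16 were higher and 2 lower in null, with a median of 0.06. They included Mthfd2l, a mitochondrial relative of Mthfd2 (0.98 ± 0.16), and, lower, Aldh1l2 (-1.15 ± 0.17) and Aldh1l1 (-0.97 ± 0.14), the mitochondrial and cytosolic enzymes that burn off formyl groups. The folate carriers Slc19a1 (0.41 ± 0.06) and Slc46a1 (0.35 ± 0.07) were higher in Tbx3-high mESC, and in the null arrays Slc46a1 was lower (-0.58 ± 0.09) and the mitochondrial folate carrier Slc25a32 higher (0.52 ± 0.11).

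Purine synthesis, which consumes formyl groups and glycine, had 0 of 11 genes past the threshold in mESC in limma, with 2 higher and 2 lower at an unadjusted p under 0.05. In iPSC 6 of 11 were higher in null and 0 lower, also at an unadjusted p under 0.05, with a median of 0.41 against 0.07 over all named genes. The largest were Adsl (0.75 ± 0.11), Gmps (0.57 ± 0.17) and Pfas (0.47 ± 0.11), which act at the adenylosuccinate, guanylate and formylglycinamidine steps.

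Genes of the amino acid response, which in mammalian cells raises serine synthesis enzymes through Atf4, did not all move with Phgdh, Psat1 and Psph. In iPSC 5 of 18 were higher and 3 lower in null. Pycr1, a proline synthesis enzyme, was higher (1.09 ± 0.13), as were Aldh18a1 (0.62), Sesn2 (0.62), Cebpg (0.52) and Trib3 (0.40). The stress gene Atf3 (-1.32 ± 0.13), the lipoprotein receptor Vldlr (-0.91 ± 0.25) and Ddit3 (-0.60) were lower. The RNA of Atf4 itself differed by 0.07 (adjusted p = 0.575). Atf4 protein was not measured, and its part in the enzyme differences was not tested. In mESC 1 of 18 was higher, the asparagine synthetase Asns (0.53 ± 0.09), and 3 were lower, with the largest for Cebpb (-0.71 ± 0.11) and Ddit3 (-0.31 ± 0.10). Of 12 aminoacyl-tRNA synthetases, 0 passed in mESC (1 higher and 1 lower at an unadjusted p under 0.05) and 3 were higher in the null arrays, for methionine (Mars1, 0.86 ± 0.18), serine (Sars, 0.76 ± 0.11) and glycine (Gars, 0.30 ± 0.08).

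Among 10 amino acid transporters measured, 3 were higher and 1 lower in null. The neutral amino acid carriers Slc38a2 (1.27 ± 0.10) and Slc43a1 (1.10 ± 0.11) were higher and the cationic carrier Slc7a1 lower (-0.79 ± 0.11). In mESC 2 were higher, Slc1a5 (0.55 ± 0.10) and Slc7a1 (0.53 ± 0.08), and 3 lower, with the largest for Slc43a1 (-1.004 ± 0.08).

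The methionine cycle takes the one-carbon units on to methylation, and its list had 2 of 14 genes higher and 4 lower in Tbx3-high mESC and 4 higher and 4 lower in null iPSC. The betaine-homocysteine methyltransferases Bhmt (1.45 ± 0.17) and Bhmt2 (1.47 ± 0.15, well above background on 3 of the 4 low arrays) were higher and spermine synthase Sms lower (-0.88 ± 0.08) in the high cells. In the null arrays Bhmt (-3.04 ± 0.25) and Bhmt2 (-1.19 ± 0.22) were lower. Nnmt, which spends methyl groups on nicotinamide, was not well above background on either null array and was at least 12.0-fold higher in wild type (adjusted p = 1.77e-07), a bound set by the lowest signal well above background on each null array or its own, whichever was higher. In transsulfuration and glutathione synthesis, which use homocysteine, serine and glycine, Gclm was lower (-0.88 ± 0.07) and Cbs higher (0.35 ± 0.08) in the high cells. In null, Gclm (1.25 ± 0.10) and Gss (0.74 ± 0.14) were higher and Cth (-1.51 ± 0.14) and Cbs lower.

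**Figure D4:**
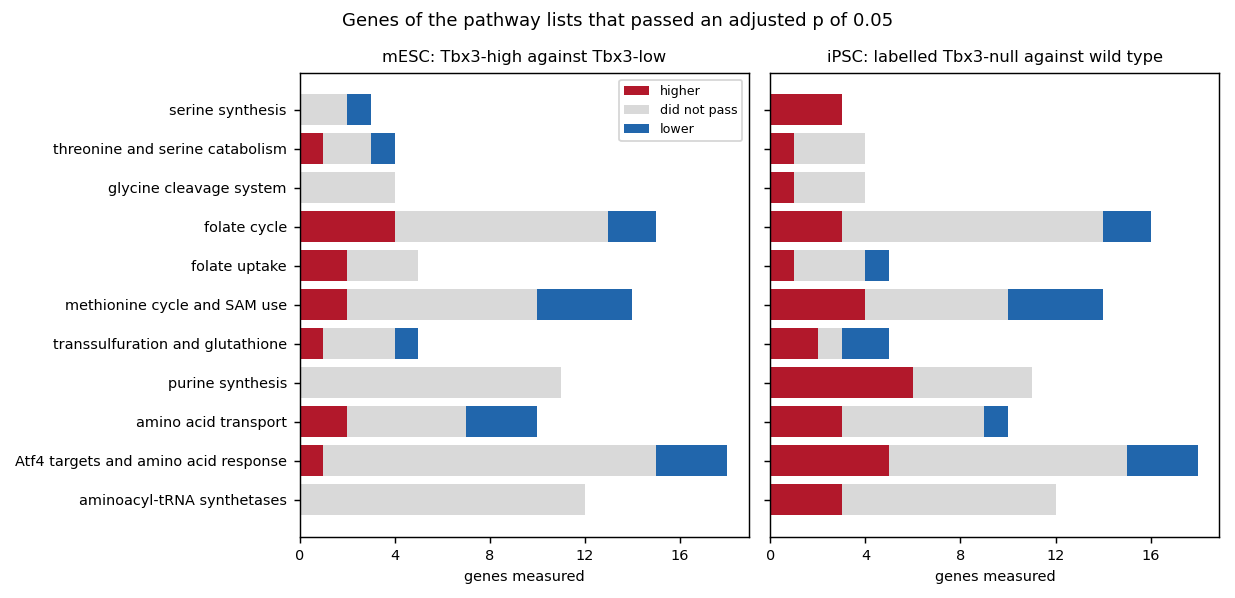
Number of genes measured in each pathway list that were higher (red), did not pass (grey) or were lower (blue) at an adjusted p under 0.05, for Tbx3-high against Tbx3-low mESC on the left and labelled Tbx3-null against wild-type iPSC on the right. Serine synthesis has 3 of 3 and purine synthesis 6 of 11 genes higher in null, and purine synthesis and the aminoacyl-tRNA synthetases have 0 genes that passed in mESC.

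Across the 12 arrays, with the mean of each slide removed, the genes whose signal went most like that of Tdh were the cytosolic isocitrate dehydrogenase Idh1 (Pearson r = 0.973), Dusp27 (0.971), the phosphatase subunit Ppp2r5d (0.968), B3gat3 (0.965) and the DNA ligase Lig1 (0.963), out of 16999 genes compared. These are descriptions: the arrays share slides, groups and scaling. Idh1 differed by 0.42 in mESC and 0.32 in iPSC, beside 0.46 and 0.27 for the same Tdh probe.

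Markers of other cell types moved with the groups. Of 14 pluripotency markers, 6 were higher and 3 lower in Tbx3-high mESC and 4 were higher and 0 lower in null, and their summed signal was 9.76 to 9.92 on the high, 9.55 to 9.70 on the low, 9.81 to 9.86 on the null and 9.64 to 9.74 on the wild-type arrays (log2). Of 12 primitive endoderm markers, 6 were higher and 0 lower in Tbx3-high mESC, among them Col4a1 (1.86 ± 0.11) and Gata6 (1.49 ± 0.13), with a summed signal of 7.33 to 7.48 on the high and 7.08 to 7.17 on the low arrays. In null 2 were higher and 6 lower, Gata6 by -1.90 ± 0.19, while the summed signal was 7.17 to 7.22 on the null and 6.72 to 6.94 on the wild-type arrays. Sparc, a secreted matrix protein that other cell types also make, sets most of that sum, with a mean of 7.15 in null and 6.69 in wild type, so the sum does not follow the 6 markers that were lower. Of the 14 fibroblast markers, 7 were measured in mESC and the others, among them Dcn, Lum, Col3a1 and Postn, were not well above background on every array of either group, with 2 higher (Pdgfrb 1.83 ± 0.10 and Col1a1 1.54 ± 0.11) and 1 lower (Tagln -1.36 ± 0.11). The fibroblast sum was 2.29 to 4.89 on the high and 2.71 to 2.95 on the low arrays. High replicate 2 stood apart there through Thy1, at 4.73 against 0.74 to 1.13 on the other mESC arrays. Without that array 4 of the 5 mESC calls of the enzymes were kept and the Psat1 call was lost. In iPSC 11 fibroblast markers were measured, 3 higher and 2 lower in null, with sums of 2.36 to 2.54 on the null and 2.35 to 2.44 on the wild-type arrays. The 2 lower were Col1a1 (-2.32 ± 0.15) and Pdgfrb (-2.22 ± 0.15). Tagln, 1 of the 3 higher, had the highest mean of the 11, 1.98 in null and 1.42 in wild type. The similar sums thus do not follow the 2 lower markers. The part of these cell types in the enzyme differences was not tested.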

How the data were processed

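Each spot's intensity is, per the file headers, a background-subtracted processed signal from Agilent's Feature Extraction software (10.7.3.1), left unscaled between arrays, and probes carry mm9 positions. The deposited series table holds log2 values that correlated with the log2 mean signal at r of at least 0.9988 (medians 6.61 on mESC and 6.58 to 6.59 on iPSC arrays); since its scaling and background treatment are unknown, it was used as an alternative setting.

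From these files, the processed signal was put on a log2 scale relative to the 75th percentile of the array's non-control spots, with outlier-marked spots set missing and spots of a probe averaged. limma 3.58.1 under R 4.3.3 (lmFit, eBayes) estimated the mean of each of the 4 groups from all 12 arrays. The spread of a probe was shared by the 4 groups (8 residual degrees of freedom). A probe was tested when all arrays of 1 or both compared groups had it well above background, and called at a Benjamini-Hochberg adjusted p under 0.05 over all probes tested. The fit was tested on simulated data with independent noise between arrays. Such data lack the slide-row pattern of these arrays, so they cannot show how well the p-values hold here. Signals, sequences and plots were handled in Python 3.11.15 (pandas 2.3.3, matplotlib 3.10.9). Names came from a RefSeq gene table: an accession named 27656 probes, a symbol 3401 and a synonym 307, while 24317 had no match. Of 146 list entries, Amd1 was not matched and is not analysed here, and Mars is now Mars1.

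All enzyme probes are described. From each pathway list the text names the passed non-member genes with the largest differences, at most 3 for each comparison. Each was read from the tested probe with the highest mean. Gcsh, Dld, Sdsl, Atf4, Thy1, Sparc and the unmeasured fibroblast markers are named beyond this rule, chosen after their values were seen. So are, in iPSC, Cbs, Aldh18a1, Sesn2, Cebpg, Trib3, Ddit3 and Tagln. One gene that the rule selects is not reported here. The 5 genes most like Tdh were taken by Pearson r. Enzymes and lists were chosen with earlier results of these data known.

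Alternatives were quantile scaling, normexp background correction (offset 50) with quantile scaling, the series table, no filter, outlier spots kept, fewer arrays, slide row, replicate number as a block, 1 probe per gene and leaving out each array; the contrast between systems with the iPSC sign turned was added after the data were seen. Same-numbered high and low arrays deviated together (r = 0.154, 0.244, 0.166 and 0.119), and their numbers were used as a block. They also share a slide row, and differently numbered pairs in a row gave 0.041, 0.338, 0.216 and 0.127. Pairs from different rows were all negative (-0.300 to -0.074). The values thus follow the slide row and do not single out a pairing by number. The iPSC numbers gave 0.003. mESC and iPSC lay on separate slides and were not compared directly.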

Additional observations from a re-analysis of the deposited data

Results flagged for a closer look

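The mESC and iPSC differences of 11 enzyme probes differed from each other, in size or in direction, as measured by (high minus low) minus (wild type minus null) in limma, the order of the labels. In log2 units the value was 0.93 for Phgdh at A_55_P2046262, 0.66 at A_55_P2092310 and 0.93 at A_55_P2143041. It was 0.55 for Psat1 at A_55_P2052290 and 0.89 at A_66_P121495, and 0.56 for Psph at A_66_P139876. It was 0.84 for Shmt1 at A_52_P673499 and 0.77 at A_55_P2186584. For the threonine enzymes it was 0.73 for Tdh at A_51_P143712, 0.80 for Tdh at A_55_P2078960 and 0.56 for Gcat. Adjusted p ranged from 0.000196 for Phgdh at A_55_P2143041 to 0.0114 for Psat1 at A_55_P2052290. Under quantile scaling, with normexp and in the series table Psat1 at A_55_P2052290 no longer passed and Gldc passed as lower, and with normexp Gcat no longer passed. Over all alternatives, left-out arrays included, Psat1 at A_55_P2052290 lost the call in 5 of 22 and Psph at A_66_P139876 in 3 of 21. Phgdh at A_55_P2092310 and Tdh at A_51_P143712 lost it in 1 of 22 each, and Shmt1 at A_55_P2186584 in 1 of 21. With the iPSC difference turned to the order of the measured Tbx3 probe, Tdh no longer passed at either probe. No enzyme probe had an array far from the others of its mESC group by Dixon's test, and the iPSC groups of 2 were too small for it.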

How the results depend on the processing

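Counts of calls over all probes fell from 7946 in mESC to 4360 in slide row 1 alone and 4476 in row 2 alone (enzyme probes 1 and 2 in place of 5), with 2 arrays a group in place of 4. With 1 probe per gene, which tests fewer probes, 6657 in place of 10398 passed in iPSC, and the enzyme calls were 5 in iPSC in place of 10 and 6 for the contrast between systems in place of 11. Leaving out 1 array gave 6633 to 7292 calls in mESC, 6952 to 8480 in iPSC and 6093 to 8271 for the contrast, with 4 to 5, 8 to 11 and 9 to 12 enzyme calls. With the replicate block the calls were 8006, 9529 and 8482, and this fit changed 1 enzyme call: Psph at A_55_P2069350 passed in the contrast (adjusted p = 0.0491). Of the single-probe results under the alternatives, 269 of mESC, 167 of iPSC and 322 of the contrast kept direction and side of the threshold, 14, 11 and 12 lost a call, 0, 1 and 8 gained one, and 15, 7 and 4 changed sign. The sign changes were all of differences that had not passed, and their cause was not tested. In mESC, Shmt1 at A_52_P673499 became -0.0231 under quantile scaling, -0.0341 with normexp, -0.0299 in the series table and -0.0385 in row 1, and ran from -0.0046 to 0.0548 with 1 array left out. Shmt1 at A_55_P2186584 became 0.166 in row 2 and ran from -0.0619 to 0.0643 with 1 array left out. Psph at A_55_P2069350 became -0.0174 with normexp and -0.0175 in the series table, and ran from -0.0182 to 0.1003. Phgdh in row 1 became -0.0358 at A_55_P2046262 and 0.0254 at A_55_P2092310, the latter from -0.0480 to 0.0316 with 1 array left out, and Psat1 at A_66_P121495 became 0.0558 in row 2. In iPSC, Mthfd1 became -0.148 under quantile scaling, -0.0543 with normexp and -0.0577 in the series table. With 1 iPSC array left out, Mthfd1 ran from -0.0267 to 0.137, Gldc from -0.254 to 0.0241 and Shmt2 from -0.140 to 0.0514. In the contrast, Mthfd1 became -0.0649 under quantile scaling, and Mthfd2 ran from -0.201 to 0.119 with 1 array left out. Gldc passed in the contrast, as lower, under quantile scaling (-0.51), with normexp (-0.57) and in the series table (-0.58), and Psat1 at A_55_P2052290 did not pass there (0.37, 0.34 and 0.38). Without the filter on dim probes the mESC Psat1 call was also lost (adjusted p = 0.109). With the iPSC difference turned to the measured Tbx3 order, chosen after seeing the data, the contrast had 10495 calls over all probes and 10 among the enzyme probes, 0 higher and 10 lower.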
